A study of Mus musculus with 27 samples.

Results

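The expression data described here set resting microglia of the adult brain beside the blood cell precursor that can enter the brain, the Ly6Chi monocyte of bone marrow. Of 27 arrays in 9 groups, 5 held naive microglia and 5 held Ly6Chi monocytes, chosen by their sample titles, so that 10 arrays enter the comparison and the other groups serve the error estimate. Naive microglia were sorted as CD11b+CX3CR1hi cells from the CNS of Cx3cr1CreER/+ mice given tamoxifen (TAM) or of mice with no treatment. The labels allow either source and do not say which array came from which, while the study's legend names only the TAM-treated Cx3cr1CreER/+ mice. In the Cre mice the CreER cassette, with EYFP, stands in place of 1 Cx3cr1 copy. Monocytes came from the bone marrow of untreated mice and were purified by depleting other cells with magnetic beads rather than by a sort for Ly6C. Mice were C57BL/6 and 6 to 12 weeks old when the experiments began, and each sample pooled 2 to 5 of them. The study counts 3 biological and 2 technical arrays in each of these groups, but no label tells them apart, so that p-values here may rest in part on technical spread. Cell type, tissue, mouse line and cell preparation all differ between the groups at once and cannot be told apart.

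Microglia settle in the brain before birth, renew themselves there and live long. They survey the tissue with fine processes, sense nucleotides, clear dying cells and synapses and depend on signals through the CSF1 receptor and on TGF-beta for their identity. Ly6Chi monocytes are short-lived cells made in the marrow from dividing progenitors. They leave it through the chemokine receptor CCR2 and become macrophages in tissues. The comparison therefore asks what separates a settled macrophage of the CNS from the Ly6Chi monocyte of bone marrow. It takes in every pathway the array covers and not only the known marker genes.

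Array medians of the log2 signal lay between 5.06 and 5.17. Pearson's r over all transcripts was 0.968 to 0.987 among naive microglia, 0.981 to 0.989 among monocytes and 0.85 to 0.879 between the groups. Naive replicate 3 stood slightly apart, at 0.968 to 0.977 with the other naive arrays. Both groups were run in both batches, but in the deposited values the difference between batches was the same in both groups to within 0.000133 log2 units, as after a batch adjustment, so that agreement between batches is no evidence of its own. The shape of the signal distribution also differed. The 90th percentile was 8.62 to 8.9 in naive microglia and 9.07 to 9.19 in monocytes, and forcing the same distribution on all arrays by quantile normalization moved the split of called transcripts from 1766 higher and 2952 lower in microglia to 2119 and 2282.

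The labels were checked against defining markers. Cx3cr1, the fractalkine receptor that the sort used, read 12.77, 12.73, 12.72, 12.71 and 12.60 in naive microglia and 10.03, 9.95, 9.52, 9.72 and 9.80 in monocytes, a difference of 2.92 ± 0.12. Every naive array lay above every monocyte array. Ly6c2, which encodes the Ly6C antigen, read 5.57, 5.82, 5.73, 5.51 and 5.94 in naive microglia and 12.73, 12.69, 12.83, 12.76 and 12.80 in monocytes, a difference of -7.05 ± 0.49. The arrays of the groups did not overlap there either. Markers of other brain cells were examined in the same way. Of 9 neuron markers none was higher and 1 was lower in microglia, the tubulin Tubb3 (-1.02 ± 0.20). This call was lost without naive replicate 3 (-0.91), monocyte replicate 3 (-0.89) or monocyte replicate 4 (-0.95). Rbfox3 (NeuN) had means of 4.84 and 4.92. The mean over the neuron list was 4.66 to 4.77 in naive arrays and 4.66 to 4.8 in monocyte arrays. In the oligodendrocyte list 1 of 11 genes was higher, Mag at 2.72 ± 0.18, a sialic acid receptor of the Siglec family, while Mog (4.70 against 4.56) and Sox10 (5.08 against 5.01) stayed near background. Of 9 astrocyte markers 1 was higher, the glutamate transporter Slc1a3 (4.80 ± 0.18), and 1 lower, clusterin (Clu, -1.34 ± 0.30), while the water channel Aqp4 stood at 5.38 against 5.27. Of 12 endothelial and mural markers 1 was higher, the VEGF receptor Kdr (1.66 ± 0.15), and 2 were lower, Ly6c1 (-2.96 ± 0.23), a relative of Ly6c2, and the VEGF receptor Flt1 (-1.41 ± 0.17), while the endothelial cadherin Cdh5 had means of 6.11 and 5.25. The list mean was 5.05 to 5.17 in naive arrays and 5.36 to 5.49 in monocyte arrays. No T or NK cell marker of 10 was called. In these bulk samples fewer cells of a type and less RNA per cell cannot be told apart.

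The pools also differed in transcripts of the sex chromosomes. Xist, the RNA of the inactive X chromosome, read 12.25, 10.98, 11.44, 11.32 and 12.18 in naive microglia and 4.88, 5.04, 5.49, 5.49 and 4.85 in monocytes, a difference of 6.48 ± 1.14. It was high in all naive arrays and at background in all monocyte arrays. The Y-linked genes Eif2s3y and Kdm5d, chosen after Xist was seen, were low in naive replicates 1 and 5 (5.54 and 4.93 for Eif2s3y) and higher in naive replicates 2, 3 and 4 (8.29, 7.35 and 8.23), while monocytes ranged from 9.02 to 9.33. The part of sex in other genes was not tested.

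Of 21666 genes with a single-symbol transcript, 1307 (6.03%) were called higher and 2222 (10.3%) lower in naive microglia, where a call is a Benjamini-Hochberg adjusted p under 0.05 from limma over all transcripts together with a change of more than 2-fold. These percentages are the background for each list below. After quantile normalization 1599 of the genes were called higher and 1708 lower, which is the background for list counts given after that scaling. The difference passed 4-fold in 455 and 799 genes and 16-fold in 89 and 189. All 5 naive arrays lay above all 5 monocyte arrays in 2960 genes (13.7%) and below them in 4331 (20%), and 39 of the 3529 called genes had overlapping arrays. Some of the differences ended at background. A monocyte mean below the median of all transcripts, 5.144, was found for 305 (23.3%) of the genes higher in microglia. A naive mean below it was found for 444 (20%) of the genes lower in microglia. For such genes the background of the array sets a floor, and the log2 difference understates the change. Differences below are naive microglia minus monocytes on the log2 scale ± SE from the fit, levels are log2 signals, and every gene said to be higher or lower was called, with limma adjusted p-values of at most 0.0151. Values of single arrays are listed in the order of replicates 1 to 5 of each group, and in each gene for which they are listed the arrays of the groups did not overlap.

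**Figure D1:**
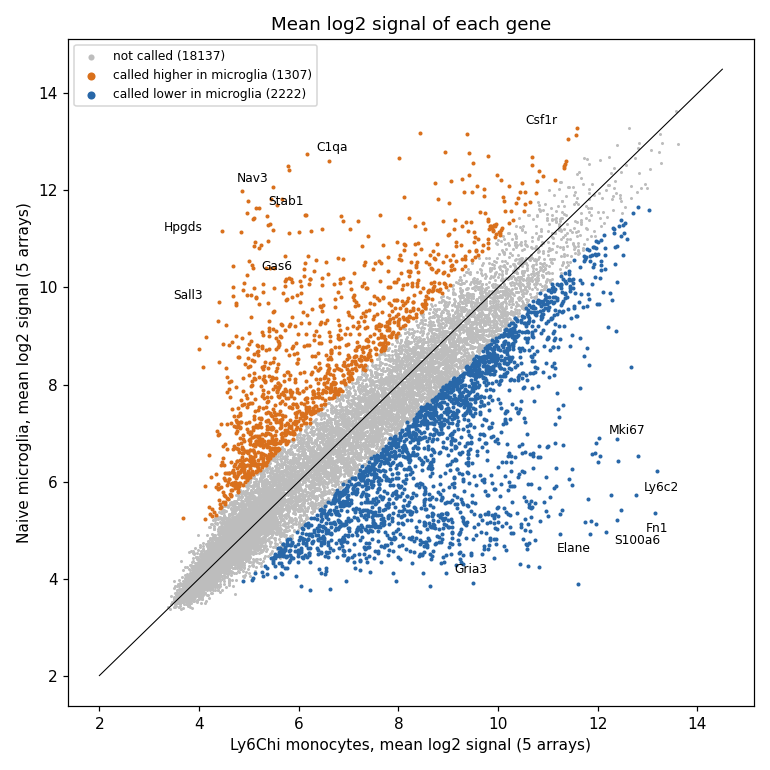
Mean log2 signal of each gene in 5 Ly6Chi monocyte arrays (x axis) and 5 naive microglia arrays (y axis). Each point is 1 of 21666 genes. Orange points are the 1307 genes called higher and blue points the 2222 called lower in naive microglia, and grey points were not called. The line marks equal signal. Named points are genes described in the text and were not chosen by the size of the difference alone.

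The listed genes by which microglia are usually known separated the groups without exception. All 36 measured homeostatic genes were higher in microglia, with a median log2 difference of 3.93, against -0.00314 over all genes. This list, like the others, was chosen with earlier results of these data known, so that the count describes the list. Nav3, a neuron navigator protein that binds microtubules, had the largest measured difference on the side of microglia. It read 12.19, 11.75, 12.11, 11.74 and 12.10 in naive microglia and 4.78, 5.13, 4.69, 4.93 and 4.83 in monocytes, a difference of 7.10 ± 0.19. The naive arrays lay within a narrow band and the monocyte arrays at background, so that the difference is a lower bound. Upk1b, a tetraspanin of the bladder lining, read 11.76, 11.44, 11.56, 11.78 and 11.93 in naive microglia and 5.53, 5.02, 5.94, 5.66 and 5.65 in monocytes, a difference of 6.10 ± 0.24. It was also near background in spleen red pulp macrophages (RPM, 5.21) and intestinal macrophages (5.03, each the mean of 2 arrays). Slc2a5, the fructose transporter GLUT5, read 11.19, 11.36, 11.65, 11.62 and 11.38 in naive microglia and 4.87, 5.28, 4.81, 5.12 and 5.41 in monocytes, a difference of 6.29 ± 0.21. RPM and intestinal macrophages had means of 5.16 and 5.02. Gpr165 (5.12 ± 0.44), an orphan receptor, stood at 4.61 and 4.48 in these groups, and Rtn4rl1 (4.25 ± 0.22), a Nogo receptor homologue, at 4.11 and 4.42. P2ry13, C1qa and Hpgds were higher than in monocytes by 6.55 ± 0.14, 6.59 ± 0.18 and 6.67 ± 0.13. C1qa was high in those macrophages too, with means of 12.67 in RPM and 12.58 in intestinal macrophages, close to the 12.76 of naive microglia. Among the smallest differences in the list were Selplg at 1.20 ± 0.16, a selectin ligand, and Cst3 at 1.62 ± 0.11, the protease inhibitor cystatin C, whose monocyte mean was already 11.56.

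Receptors for nucleotides differed in both directions. P2ry12, the ADP receptor that steers microglial processes, read 12.43, 12.47, 12.68, 12.66 and 12.75 in naive microglia and 6.81, 6.31, 6.39, 6.70 and 6.81 in monocytes, a difference of 5.94 ± 0.12. No array of either group came near the other. P2ry13, a second ADP receptor (6.55 ± 0.14), the UDP receptor P2ry6 (2.16 ± 0.10), the ATP-gated channel P2rx7 (1.54 ± 0.11) and the ectonucleotidase Entpd1 (CD39, 1.53 ± 0.11) were higher too. P2ry1, another ADP receptor, went the other way. It read 5.04, 4.59, 4.40, 3.88 and 4.51 in naive microglia and 8.97, 9.38, 9.15, 8.58 and 8.66 in monocytes, a difference of -4.35 ± 0.19. All naive arrays were at background. P2ry2 (-1.49 ± 0.19) and the ATP release channel Panx1 (-2.10 ± 0.21) were also lower. In all, 7 of 21 measured genes of this list were higher and 4 lower.

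Of 21 complement genes 9 were higher in microglia, 1 was lower and 11 were not called, with a median of 0.11. The Reactome set of the complement cascade had 4 higher and 1 lower of 24. C1qa, C1qb and C1qc encode the chains of C1q, the recognition molecule that tags synapses and debris. C1qa read 12.82, 12.68, 12.76, 12.80 and 12.73 in naive microglia and 5.63, 5.85, 6.99, 5.91 and 6.43 in monocytes, a difference of 6.59 ± 0.18. C1qb and C1qc differed by 6.51 ± 0.15 and 5.78 ± 0.15. The anaphylatoxin receptors C3ar1 (5.13 ± 0.11), C5ar2 (3.10 ± 0.18) and C5ar1 (2.01 ± 0.18) were higher as well. The lower gene was Cfp, properdin, which stabilises the alternative pathway convertase and read 6.15, 5.54, 5.77, 5.93 and 6.34 in naive microglia and 10.17, 10.68, 10.74, 10.72 and 10.67 in monocytes, a difference of -4.68 ± 0.20. Every naive array was near background. Itgam, the CD11b chain used in the sort, did not pass the 2-fold limit (0.94 ± 0.11). Among Fc receptors 4 of 15 were higher and 0 lower, led by Fcrls (6.80 ± 0.15), Fcrl1 (2.81 ± 0.18) and the high-affinity IgG receptor Fcgr1 (2.48 ± 0.12), while Fcgr2b, the inhibitory receptor, differed by 0.16 ± 0.14 and was not called. Of 9 Siglecs 5 were higher, with Siglech at 6.69 ± 0.14 and Cd33 at 3.38 ± 0.09, and Siglecg was lower at -1.28 ± 0.18.

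**Figure D2:**
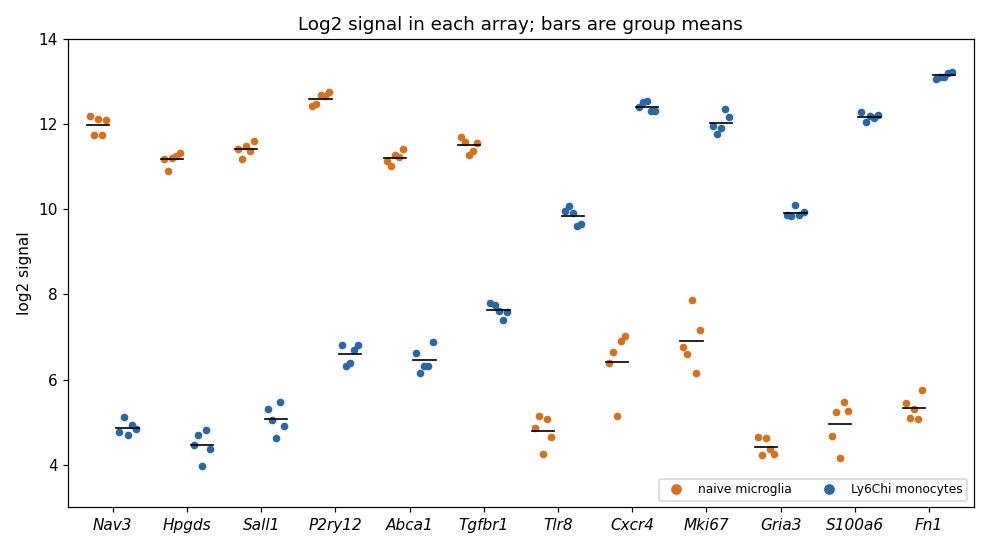
Log2 signal of 12 genes in each of the 5 naive microglia arrays (orange) and 5 Ly6Chi monocyte arrays (blue), with a bar at each group mean. The arrays of the groups do not overlap for any of the 12 genes, whose log2 differences run from 7.10 for Nav3 to -7.82 for Fn1.

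Transcription factors lay on both sides, and lineage factors that microglia and monocytes share were not called. Sall1, a zinc finger factor that holds microglial identity, read 11.41, 11.17, 11.50, 11.36 and 11.60 in naive microglia and 5.31, 5.05, 4.64, 5.47 and 4.92 in monocytes, a difference of 6.29 ± 0.21. Naive arrays spread over less than 1 log2 unit and monocyte arrays lay at background. Its relative Sall3 read 9.35, 9.70, 9.94, 9.91 and 9.59 in naive microglia and 4.61, 4.11, 4.14, 4.32 and 4.83 in monocytes, a difference of 5.24 ± 0.24. Its means in RPM and intestinal macrophages were 4.27 and 3.66. Maf (4.39 ± 0.13), Bhlhe41 (4.06 ± 0.17), Etv1 (3.55 ± 0.18), Smad3 (2.16 ± 0.17) and Mef2c (1.77 ± 0.14) were higher, so that 14 of 18 in the microglia list were called. Sox4, a factor better known from progenitors and neurons, was higher at 3.55 ± 0.22. Spi1 (PU.1) differed by -0.36 ± 0.12, Irf8 by 0.02 ± 0.23, Runx1 by 0.23 ± 0.16 and Klf2 by 0.79 ± 0.38, none of them called. Spi1 passed the limit on the limma adjusted p (0.0212) but not the 2-fold limit. In the wider myeloid list 10 of 32 were lower (7 after quantile normalization). Nfe2, a factor of platelet and granulocyte precursors, read 4.84, 4.65, 4.63, 4.89 and 4.44 in naive microglia and 9.96, 9.73, 9.90, 9.79 and 9.75 in monocytes, a difference of -5.12 ± 0.19. The granulocyte factor Cebpe (-2.71 ± 0.15), the monocyte factor Klf4 (-2.80 ± 0.33), the retinoic acid receptor Rara (-3.47 ± 0.18), Id1 (-2.56 ± 0.16) and Myb (-2.33 ± 0.12) were lower, and Irf4 (-1.17 ± 0.19) was lower but under 2-fold after quantile normalization (-0.96).

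Promoters of 2 factors are shown because they hold the MEF2 box, the AT-rich site of the MEF2 factors, which was rare. It was in 92 of 16746 (0.549%) of all promoters, counting either strand, 12 of 1011 (1.19%) of those of genes called higher and 2 of 1743 (0.115%) of those of genes called lower. Each window runs from 250 bases before to 50 bases after the first start that RefSeq lists, on GRCm38.p6, with the box in capitals. Jun, a subunit of AP-1 (2.33 ± 0.24), lies at chr4:95052173-95052472 on the minus strand and Mef2a, a MEF2 factor itself (1.19 ± 0.10), at chr7:67372809-67373108 on the minus strand.
Jun: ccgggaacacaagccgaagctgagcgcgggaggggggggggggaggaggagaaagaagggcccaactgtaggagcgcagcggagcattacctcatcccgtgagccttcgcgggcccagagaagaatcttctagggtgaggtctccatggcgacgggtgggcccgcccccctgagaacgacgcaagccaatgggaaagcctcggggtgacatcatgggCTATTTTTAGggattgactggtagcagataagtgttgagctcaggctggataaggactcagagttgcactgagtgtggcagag
Mef2a: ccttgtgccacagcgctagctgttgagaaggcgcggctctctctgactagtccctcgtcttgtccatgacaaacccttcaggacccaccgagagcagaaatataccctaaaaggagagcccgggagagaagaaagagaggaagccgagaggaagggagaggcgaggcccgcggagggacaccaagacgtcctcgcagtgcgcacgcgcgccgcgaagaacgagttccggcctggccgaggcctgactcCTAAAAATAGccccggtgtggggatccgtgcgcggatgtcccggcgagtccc
A match of letters does not show that a factor binds there.

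Of 34 genes of TGF-beta and BMP signalling 13 were higher in microglia, among them receptors and feedback regulators, 1 was lower and 20 were not called. Tgfbr1, the type 1 receptor, read 11.70, 11.58, 11.27, 11.37 and 11.56 in naive microglia and 7.80, 7.75, 7.61, 7.39 and 7.58 in monocytes, a difference of 3.92 ± 0.10. The lowest naive array exceeded the highest monocyte array by more than 2 log2 units. Tgfbr2 differed by 2.79 ± 0.14, Smad3 by 2.16 ± 0.17, the inhibitory Smad7 by 2.89 ± 0.16 and the repressors Ski and Skil by 2.58 ± 0.14 and 2.22 ± 0.15. Pmepa1, another feedback gene, was not in the list, and its value of 5.29 ± 0.15 was chosen after it was seen. The ligand Tgfb1 (-0.10 ± 0.13), the transducers Smad2 (-0.30 ± 0.13) and Smad4 (-0.59 ± 0.11) and the ligand-presenting protein Nrros (-0.18 ± 0.16) were not called. Tgfbi, a matrix protein induced by TGF-beta in other cells, was the single member that was lower (-2.60 ± 0.16). The wider Reactome set of TGF-beta receptor signalling had no such balance, with 11 higher and 12 lower of 61 and a median of -0.30. In the Notch list 6 of 24 genes were higher, among them the coactivator Maml2 (3.96 ± 0.17) and the ligand Jag2 (2.26 ± 0.21), and in the Wnt list 5 of 28, among them Tcf7l2 (2.99 ± 0.19), with 0 lower.

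Receptors for growth factors and cytokines lay on both sides. Csf1r was higher at 1.71 ± 0.08 on a high level in both groups (13.30 against 11.59), and its ligand Csf1 at 2.30 ± 0.21. Flt3 and Kit, receptors of progenitors, read means of 7.54 and 6.65 in monocytes and were lower in microglia (-2.17 ± 0.14 and -1.79 ± 0.21), as were the IL-3 receptor chain Il3ra (-3.28 ± 0.13) and the GM-CSF receptor chain Csf2ra (-1.48 ± 0.19). Il21r (4.16 ± 0.13), Il7r (3.70 ± 0.18), Il1rl2 (2.60 ± 0.15, the IL-36 receptor) and Il10ra (1.49 ± 0.11) were higher. Among ligands, microglia had more transcript of the growth factor Pdgfb (4.36 ± 0.16), of Il1a (3.73 ± 0.17), Tnfsf13b (BAFF, 2.1 ± 0.15) and Il6 (2.02 ± 0.31), and less of the IL-1 antagonist Il1rn (-2.0 ± 0.17) and of Hgf (-1.70 ± 0.18). Igf1 differed by 0.01 ± 0.17, at background in both groups. In the list of cytokines and growth factors 12 of 31 were higher and 3 lower.

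Of 23 chemokine and chemoattractant receptors 6 were higher in microglia and 3 lower. The higher ones were Cx3cr1, the chemerin receptors Cmklr1 (2.93 ± 0.15) and Ccrl2 (3.39 ± 0.36) and the complement receptors C3ar1, C5ar1 and C5ar2 given above. The lower ones were Ccr2, Cxcr4 and Ccr1. Ccr2, the receptor for CCL2, read 5.85, 5.95, 4.92, 6.74 and 6.10 in naive microglia and 11.22, 11.12, 11.10, 11.22 and 11.12 in monocytes, a difference of -5.25 ± 0.23. Cxcr4, which retains cells in marrow through CXCL12, read 6.40, 6.65, 5.15, 6.90 and 7.02 in naive microglia and 12.39, 12.51, 12.54, 12.31 and 12.32 in monocytes, a difference of -5.95 ± 0.39. Neither overlapped between the groups. Ccr1, a receptor for CCL3 and CCL5, differed by -3.37 ± 0.22. Of 24 chemokine ligands 7 were higher in microglia, 3 were lower and 14 were not called. Among those higher were Ccl3 (4.14 ± 0.31), Ccl4 (3.96 ± 0.28), Cxcl16 (3.95 ± 0.17), Ccl12 (3.41 ± 0.32) and Ccl2 (2.71 ± 0.33). The platelet chemokines Ppbp (-5.18 ± 0.17) and Pf4 (-3.92 ± 0.35) were higher in monocytes. Among other platelet genes Itga2b differed by -0.74 ± 0.15 and was not called, and Gp9 was higher in microglia (1.91 ± 0.22). The list of platelet markers had means of 6.75 to 6.96 in naive and 7.84 to 8.58 in monocyte arrays, and the part of platelets in Ppbp and Pf4 was not tested.

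Immediate-early genes, which switch on within minutes of a stimulus or of tissue handling, were higher in microglia in 14 of 24 cases and lower in 2, Ier2 (-1.43 ± 0.28) and Fosl2 (-2.98 ± 0.21). Egr1, a zinc finger factor, read 9.01, 9.46, 9.04, 9.69 and 9.17 in naive microglia and 5.77, 6.37, 5.91, 5.84 and 6.32 in monocytes, a difference of 3.22 ± 0.29. All naive arrays lay more than 2 log2 units above all monocyte arrays. Atf3 differed by 2.66 ± 0.30, Jun by 2.33 ± 0.24 and the heat shock genes Hspa1a and Hspa1b by 2.07 ± 0.24 and 2.69 ± 0.38. Fos itself was not called (-0.84 ± 0.35) and neither was the nuclear receptor Nr4a1 (0.68 ± 0.34). Intestinal macrophages, the other cells taken from digested tissue, had a mean of 10.82 for Egr1 and RPM one of 6.65. Digestion of the CNS and flushing of marrow go with the groups, and their part cannot be told apart from cell type.

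Innate sensors divided by family. Of 27 Toll-like receptor genes and adaptors 11 were higher and 2 lower. The wider Reactome set of Toll-like receptor cascades had 12 higher and 13 lower of 90. Tlr3, the sensor of double-stranded RNA, read 7.92, 7.90, 8.03, 7.82 and 7.79 in naive microglia and 5.01, 5.61, 5.26, 5.43 and 5.10 in monocytes, a difference of 2.62 ± 0.15. Tlr8, a sensor of single-stranded RNA, read 4.87, 5.14, 4.24, 5.08 and 4.65 in naive microglia and 9.95, 10.06, 9.91, 9.60 and 9.66 in monocytes, a difference of -4.97 ± 0.35. One receptor was at background in monocytes and the other in microglia. Tlr12 (3.21 ± 0.22), the LPS co-receptor Cd14 (3.16 ± 0.15) and Tlr7 (2.49 ± 0.13) were higher and the inhibitory kinase Irak3 (-2.72 ± 0.15) lower. Of 23 C-type lectin receptors 13 were lower and 0 higher. Clec12a, an inhibitory receptor for uric acid crystals, read 4.84, 5.63, 4.11, 5.96 and 5.76 in naive microglia and 10.83, 10.60, 10.50, 10.71 and 10.65 in monocytes, a difference of -5.41 ± 0.40. Naive replicate 3 was the lowest. Clec4e (Mincle, -4.39 ± 0.47), Clec4b1 (-4.51 ± 0.21) and the beta-glucan receptor Clec7a (-2.68 ± 0.17) followed. Paired receptors leaned to monocytes too (12 of 24 lower, 4 higher), with Trem3 at -4.72 ± 0.36, Cd300lb at -3.89 ± 0.14 and Pirb at -2.72 ± 0.14. The exceptions were Lair1 (3.74 ± 0.12), a collagen receptor, Lilra5 (2.95 ± 0.18), Trem2 (2.94 ± 0.16) and Cd300c2 (2.26 ± 0.11). The signalling adaptors Tyrobp (-0.17 ± 0.11) and Fcer1g (-0.06 ± 0.10) did not differ by 2-fold and were near the top of the scale in both groups. The letters GAGGAAG or AGGAAGT, cores of the ETS factor PU.1, were in 13 of 18 (72.2%) of the promoters of paired receptors, 8 of 26 (30.8%) of those of homeostatic genes, 9 of 23 (39.1%) of those of monocyte genes and 3100 of 16746 (18.5%) of all.

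Interferon-stimulated genes were lower in microglia in 11 of 30 cases and higher in 2, with a median log2 difference of -0.78. The Reactome set of interferon alpha and beta signalling did not show this, with 1 higher and 2 lower of 25 and a median of -0.03. Ifitm3, a membrane protein that blocks virus entry, read 5.94, 7.07, 7.43, 7.03 and 6.48 in naive microglia and 10.83, 11.01, 11.02, 11.50 and 11.36 in monocytes, a difference of -4.45 ± 0.24. Cmpk2, a mitochondrial nucleotide kinase, differed by -4.32 ± 0.24, the 2-5A synthetase Oas3 by -2.65 ± 0.22, Sp100 by -2.52 ± 0.20 and the factor Irf7 by -2.15 ± 0.20. Ifi27 (2.08 ± 0.12) and Ddx60 (1.22 ± 0.19) were the members that were higher. Isg15 (-0.97 ± 0.19), Rsad2 (-0.88 ± 0.18) and Ifit3 (0.57 ± 0.23) were not called, nor were the interferon receptor chains Ifnar1 (-0.43 ± 0.13) and Ifnar2 (-0.12 ± 0.12). The promoter of Ifitm3 is shown for its interferon response element, searched as GAAA, any 2 bases and a second GAAA on either strand and printed in capitals, the repeat to which interferon regulatory factors bind, in the same window on GRCm38.p6 at chr7:141010695-141010994 on the minus strand.
Ifitm3: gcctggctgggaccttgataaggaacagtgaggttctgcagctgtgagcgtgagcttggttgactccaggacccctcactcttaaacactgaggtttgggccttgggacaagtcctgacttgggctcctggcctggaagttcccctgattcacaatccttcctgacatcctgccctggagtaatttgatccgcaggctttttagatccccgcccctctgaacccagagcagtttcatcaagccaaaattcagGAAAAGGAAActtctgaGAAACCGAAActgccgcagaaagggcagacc
This repeat was in 11 of 23 (47.8%) of the promoters of the list, 70 of 1743 (4.02%) of those of genes called lower and 562 of 16746 (3.36%) of all.

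Of 17 genes of MHC class II antigen presentation 6 were higher and 3 lower. The wider Reactome set of the same name leaned the other way, with 6 higher and 17 lower of 78 and a median of -0.124. The classical chains H2-Aa (-0.37 ± 0.36), H2-Ab1 (0.00 ± 0.26) and H2-Eb1 (0.08 ± 0.35) were not called, at levels of 9.94 and 9.94 for H2-Ab1 against 12.31 in RPM and 13.54 in intestinal macrophages. The costimulators Cd86 (2.27 ± 0.11), Cd83 (2.69 ± 0.23) and Cd80 (1.52 ± 0.17) were higher, as were the peptide-loading modulators H2-Oa (2.41 ± 0.20) and H2-Ob (1.69 ± 0.14). Cd40 (-1.36 ± 0.18) and the thiol reductase Ifi30 (-1.50 ± 0.12) were lower. Of 17 class I genes 4 were lower and 0 higher, 1 of them after quantile normalization. Among cytosolic sensors 8 of 26 were lower, led by Mefv (pyrin, -3.90 ± 0.15) and Zbp1 (-2.98 ± 0.33), a sensor of Z-form nucleic acid, while Nlrp1b was higher (1.88 ± 0.18).

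Of 27 genes for scavenging and for the recognition of dying cells 9 were higher and 3 lower. Mertk, the receptor kinase of efferocytosis, read 9.38, 9.25, 9.64, 9.56 and 9.60 in naive microglia and 5.42, 5.21, 5.46, 5.82 and 5.47 in monocytes, a difference of 3.95 ± 0.12. Its bridging ligand Gas6 read 10.31, 10.28, 11.07, 10.41 and 10.23 in naive microglia and 5.21, 5.36, 4.28, 5.28 and 5.17 in monocytes, a difference of 5.34 ± 0.20. In both, naive arrays lay above all monocyte arrays. Stab1, a scavenger receptor, differed by 6.40 ± 0.13 and Havcr2 (TIM-3) by 4.47 ± 0.17. Msr1, a class A scavenger receptor, was lower (-4.62 ± 0.25), as was Scarb1 (-1.84 ± 0.14). Proteases of the lysosome divided as well. Cathepsin F (Ctsf, 5.35 ± 0.19), legumain (Lgmn, 3.77 ± 0.09), Ctsl (3.20 ± 0.12) and Ctsd (1.99 ± 0.09) were higher, and Ctse (-2.65 ± 0.29) and the granule protease Ctsg (-5.91 ± 0.14) lower, while Ctsb (0.52 ± 0.09) and Ctsz (0.58 ± 0.10) were not called. Most lysosomal hydrolases and membrane proteins were not called, 30 of 38 not passing. The tetraspanin Cd63 (2.31 ± 0.14) and Naglu (1.71 ± 0.15), a heparan sulphate hydrolase, were higher and Galns (-2.12 ± 0.16), a keratan sulphate hydrolase, lower. After quantile normalization 10 of the list were higher in place of 6.

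Lipid handling genes were higher in 7 and lower in 7 of 28 cases. Abca1, the pump that hands cholesterol to lipoproteins, read 11.13, 11.01, 11.27, 11.24 and 11.41 in naive microglia and 6.63, 6.16, 6.31, 6.33 and 6.88 in monocytes, a difference of 4.70 ± 0.14. Abcg1 (1.34 ± 0.19), Abca9 (1.92 ± 0.11), the lysophospholipid acyltransferase Lpcat2 (3.93 ± 0.15) and Mgll (3.35 ± 0.19), which degrades the endocannabinoid 2-AG, were higher too. Fabp5, a fatty acid carrier, read 5.43, 5.81, 4.64, 6.43 and 5.85 in naive microglia and 11.80, 11.71, 11.88, 11.83 and 11.80 in monocytes, a difference of -6.18 ± 0.24. The naive arrays were near background, with replicate 3 the lowest. The droplet coat proteins Plin2 (-2.37 ± 0.17) and Plin3 (-2.47 ± 0.16) were lower. Apoe was not called (0.23 ± 0.21). Cholesterol synthesis genes were lower in 6 of 21 cases and higher in 0, with Sqle, squalene epoxidase, at -3.11 ± 0.13 and Mvd, which makes isopentenyl pyrophosphate, at -2.27 ± 0.15. CCAAT, the site of the factor NF-Y, was in 16 of 18 (88.9%) of the promoters of this list and 6432 of 16746 (38.4%) of all. Of the eicosanoid genes 8 of 21 were higher and 3 lower. Hpgds, which makes prostaglandin D2, read 11.18, 10.90, 11.21, 11.24 and 11.33 in naive microglia and 4.45, 4.70, 3.97, 4.82 and 4.37 in monocytes, a difference of 6.67 ± 0.13. Ltc4s, which makes leukotriene C4, differed by 4.27 ± 0.19, whereas Lta4h, which makes leukotriene B4, was lower (-1.66 ± 0.13), as was the leukotriene B4 receptor Ltb4r1 (-4.37 ± 0.16). In the iron list Slc40a1, the iron exporter ferroportin, was higher (4.86 ± 0.28), while Hmox1 (-0.01 ± 0.25) and Fth1 (0.13 ± 0.10) were not called.

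Genes that are known to rise in microglia near plaques and in other disease settings were not uniformly low in naive microglia. Of 20 in this list 10 were higher than in monocytes, among them Trem2 (2.94 ± 0.16), the tetraspanin Cd9 (3.06 ± 0.15) and the metalloproteinase inhibitor Timp2 (2.82 ± 0.13), and 3 were lower, Clec7a (-2.68 ± 0.17), lysozyme (Lyz2, -2.32 ± 0.15) and cystatin F (Cst7, -1.75 ± 0.20). Lipoprotein lipase (Lpl) was not called (-0.74 ± 0.19). Of 23 TNF ligands and receptors 4 were higher and 5 lower. Tnfrsf11a, the receptor RANK, differed by 2.60 ± 0.16, Tnfrsf17, known from plasma cells as BCMA, by 3.11 ± 0.28, and the death receptor Fas by -2.94 ± 0.13. Among apoptosis regulators the survival factors Bcl2l1 (1.72 ± 0.13) and Cflar (1.08 ± 0.11) were higher and Apaf1, the core of the apoptosome, lower (-1.09 ± 0.11, and -0.96 after quantile normalization), with 17 of 22 not called. Of 8 Schlafen genes, a family linked to the growth control of lymphoid and myeloid cells, 5 were lower, with Slfn1 at -3.83 ± 0.24, and none higher. Of 11 genes of macrophages at the borders of the brain 1 was higher, Stab1, and 4 were lower, while Lyve1 (0.39 ± 0.21) and Folr2 (0.50 ± 0.19) were not called.

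Some surface genes usually studied in neurons and glia also differed. Gabbr1, a subunit of the GABA-B receptor, read 11.21, 10.76, 11.07, 10.70 and 11.07 in naive microglia and 5.55, 5.60, 5.06, 5.68 and 5.06 in monocytes, a difference of 5.58 ± 0.18. Its partner Gabbr2 was at background in both groups (4.66 against 4.66). Slc1a3, a glutamate transporter, read 8.88, 8.87, 9.25, 8.93 and 8.98 in naive microglia and 4.37, 4.16, 3.68, 4.41 and 4.09 in monocytes, a difference of 4.80 ± 0.18. Its mean in RPM was 8.83. Gria3, an AMPA receptor subunit, ran the other way, with 4.66, 4.24, 4.63, 4.37 and 4.25 in naive microglia and 9.86, 9.84, 10.11, 9.86 and 9.94 in monocytes, a difference of -5.49 ± 0.13. Of 23 genes in this list 4 were higher and 1 lower, with 3 higher after quantile normalization, and the glutamate receptors Gria1, Gria2 and Grin2a were at background throughout (4.19 against 4.21 for Gria2). Ion channels were higher in 12 of 34 and lower in 5. The calcium-activated potassium channel Kcnma1 (3.88 ± 0.25), the A-type channel Kcnd1 (3.85 ± 0.16) and the potassium leak channel Kcnk13 (2.66 ± 0.20) were higher, and the potassium channel Kcnn4 (-2.04 ± 0.17) and the channel subunit Kcne3 (-3.33 ± 0.12) lower. Solute carriers were higher in 22 of 40 and lower in 4. They included the organic anion transporter Slco2b1 (5.09 ± 0.28), the amino acid transporter Slc7a8 (4.69 ± 0.10), the folate and haem carrier Slc46a1 (3.93 ± 0.16) and the zinc transporter Slc39a12 (3.59 ± 0.24), while the glutamine transporter Slc1a5 (-1.95 ± 0.17) and the glucose transporter Slc2a6 (-3.05 ± 0.16) were lower. Adhesion and orphan G protein-coupled receptors were split almost evenly, 14 higher and 13 lower of 33, with Gpr84, a fatty acid receptor, at 4.60 ± 0.18 and Gpr141, an orphan, at -6.09 ± 0.21.

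Integrins and related adhesion receptors were higher in 7 and lower in 7 of 26 cases. Itgb5, a chain that pairs with alpha v, read 12.86, 12.74, 12.80, 12.74 and 12.80 in naive microglia and 8.86, 8.98, 9.02, 8.87 and 8.99 in monocytes, a difference of 3.85 ± 0.10. Itgb7, the chain that pairs with alpha 4, read 5.45, 4.89, 5.21, 5.27 and 5.08 in naive microglia and 10.83, 10.82, 10.88, 10.87 and 10.85 in monocytes, a difference of -5.67 ± 0.13. The monocyte arrays spread over less than 1 log2 unit in both. Itga4 (-5.30 ± 0.32), Itgal (-4.71 ± 0.30, the LFA-1 chain) and the hyaluronan receptor Cd44 (-4.43 ± 0.21) were lower, and Itgav (1.33 ± 0.14), Itga9 (1.78 ± 0.11) and Icam1 (2.05 ± 0.17) higher, while Itgb1 (-0.15 ± 0.14) and Itgb2 (-0.20 ± 0.23) were not called. Of 32 matrix genes 9 were higher and 14 lower. Fn1, fibronectin, had the largest difference of all on the monocyte side. It read 5.45, 5.10, 5.32, 5.08 and 5.76 in naive microglia and 13.06, 13.12, 13.12, 13.19 and 13.23 in monocytes, a difference of -7.82 ± 0.42. All naive arrays were near background. The proteoglycan Vcan (-4.88 ± 0.15) and the galectins Lgals1 (-6.56 ± 0.25) and Lgals3 (-3.93 ± 0.18) were lower, and Sparc (5.29 ± 0.19), the metalloproteinase Mmp2 (3.82 ± 0.14) and Adamts1 (3.75 ± 0.42) higher. Actin and cell shape genes lay on both sides, with 16 of 38 genes higher and 9 lower. Fscn1, the actin bundler fascin, read 11.05, 10.56, 11.24, 10.51 and 10.67 in naive microglia and 4.81, 5.35, 5.46, 5.10 and 5.32 in monocytes, a difference of 5.60 ± 0.21. Arhgap5 (4.24 ± 0.16), Srgap2 (2.54 ± 0.15) and Marcks (2.98 ± 0.12) were higher, and filamin A (Flna, -3.08 ± 0.11), calponin 2 (Cnn2, -3.76 ± 0.18) and vimentin (Vim, -3.53 ± 0.14) lower. Of 31 axon guidance genes 5 were higher, 5 were lower and 21 were not called. Sema4c (3.96 ± 0.16) and Epha2 (3.34 ± 0.21) were among the higher. The receptor Plxnd1 (-4.27 ± 0.23) and the ligand Sema4a (-3.74 ± 0.14) were among the lower.

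On the monocyte side, all 27 listed Ly6Chi monocyte genes were lower in microglia, with a median of -5.30. This list too was chosen with earlier results of these data known, so that the count describes the list. S100a6, a calcium-binding protein, read 4.68, 5.24, 4.16, 5.48 and 5.26 in naive microglia and 12.29, 12.04, 12.18, 12.15 and 12.20 in monocytes, a difference of -7.21 ± 0.41. F13a1, the coagulation factor XIII A chain, read 5.92, 4.96, 4.98, 5.91 and 5.27 in naive microglia and 12.58, 12.46, 12.39, 12.47 and 12.38 in monocytes, a difference of -7.04 ± 0.22. Chil3, a chitinase-like protein, read 5.61, 5.31, 4.74, 5.03 and 5.21 in naive microglia and 12.16, 12.16, 11.84, 11.60 and 11.58 in monocytes, a difference of -6.59 ± 0.44. All 3 were close to background in every naive array. In the S100 family 8 of 14 members were lower, with S100a10 at -5.20 ± 0.19 and S100a4 at -5.33 ± 0.24, and the rest, at background in both groups, were not called. In the Ms4a family 6 of 17 were lower, among them Ms4a4c (-5.54 ± 0.19) and Ms4a8a (-5.08 ± 0.11), and none higher. Cybb, the catalytic subunit of the phagocyte NADPH oxidase, read 5.51, 6.24, 5.67, 6.28 and 5.86 in naive microglia and 10.20, 10.35, 10.35, 10.36 and 10.37 in monocytes, a difference of -4.43 ± 0.29. Its partner Cyba (-0.50 ± 0.11) and the regulator Ncf1 (0.29 ± 0.13) were not called. Of 29 redox genes 17 were lower, with the glutathione transferase Mgst1 at -4.71 ± 0.22 and thioredoxin (Txn1) at -2.66 ± 0.13, and 1 was higher, the proton channel Hvcn1 (1.38 ± 0.15). After quantile normalization 14 were lower and 3 higher.

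Granule genes of neutrophils and their precursors were also high in the monocyte arrays. Elane, neutrophil elastase, read 5.17, 4.84, 4.86, 5.12 and 4.63 in naive microglia and 11.83, 11.72, 12.13, 11.77 and 11.75 in monocytes, a difference of -6.89 ± 0.14. Mpo, myeloperoxidase, read 4.86, 4.60, 4.74, 4.65 and 4.83 in naive microglia and 10.48, 10.57, 10.82, 10.57 and 10.69 in monocytes, a difference of -5.89 ± 0.11. Prtn3 (-6.52 ± 0.16) and Ctsg (-5.91 ± 0.14) belong to the same granule type. In this list of azurophil granule and progenitor genes 15 of 22 were lower in microglia and 2 higher. Secondary granule genes were lower in 14 of 20 cases and higher in 1. The cathelicidin Camp differed by -5.86 ± 0.51, Ngp by -4.81 ± 0.47 and Mmp8 by -6.56 ± 0.61. Among markers of mature neutrophils Ly6g was lower (-1.15 ± 0.34), a call lost without monocyte replicate 1 (-0.88), and Cxcr2 (-0.90 ± 0.36), Retnlg (-1.22 ± 0.69) and Stfa1 (-0.27 ± 0.26) were not called. The secondary granule list had means of 5.43 to 5.55 in naive and 8.03 to 8.56 in monocyte arrays. The study's methods do not call the bead-purified monocytes fully pure, and the part of other cells in these genes was not tested. Immunoglobulin genes were a further example. Igkv5-43, a kappa light chain variable segment, read 6.54, 5.70, 6.20, 6.71 and 5.96 in naive microglia and 13.20, 13.07, 13.08, 13.26 and 13.32 in monocytes, a difference of -7.00 ± 0.43. Jchain, the joining chain of secreted antibody, and Ighg3, a heavy chain, were looked at after this value was seen and differed by -5.92 ± 0.25 and -4.26 ± 0.29. B cell markers were not raised beside them, with 1 of 9 higher in microglia (Cd22, 1.41 ± 0.14) and 0 lower, and list means of 5.29 to 5.45 in naive and 5.21 to 5.28 in monocyte arrays. The basophil protease Mcpt8 (-3.31 ± 0.18) and the erythroid carbonic anhydrase Car1 (-1.35 ± 0.16) were lower in microglia, while Klf1, which defines erythroid cells, was at 5.51 in monocytes and not called.

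**Figure D3:**
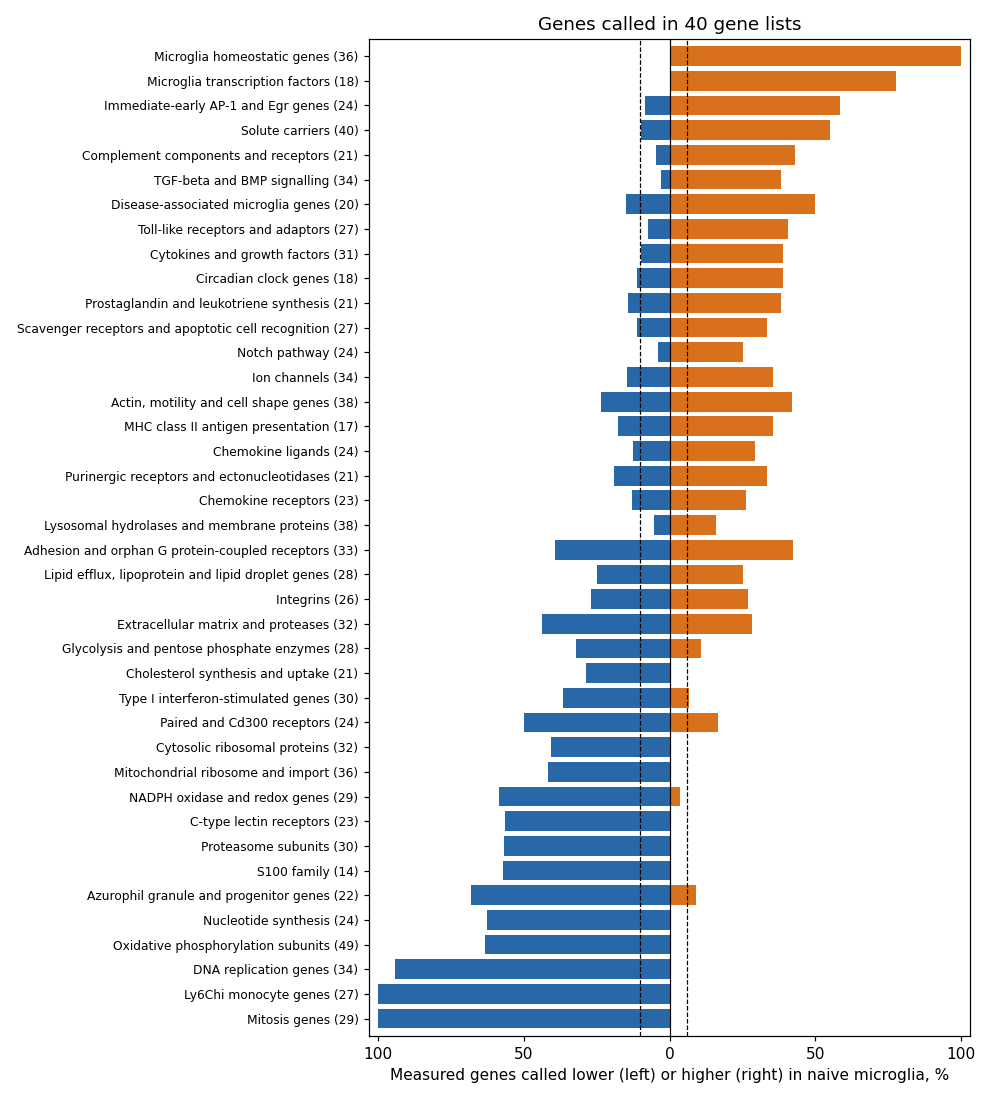
Share of measured genes called higher (orange, right) and lower (blue, left) in naive microglia for 40 gene lists, in percent of each list's measured genes, with the number measured in brackets. Dashed lines mark the shares over all genes, 6.03% higher and 10.3% lower.

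Cell cycle genes were on the side of the monocytes. All 29 measured mitosis genes were lower in microglia, with a median of -4.32. Mki67, the proliferation antigen Ki-67, read 6.76, 6.59, 7.86, 6.15 and 7.16 in naive microglia and 11.96, 11.78, 11.90, 12.35 and 12.17 in monocytes, a difference of -5.20 ± 0.26. Aurkb, the Aurora kinase of cytokinesis, read 5.89, 6.04, 7.35, 5.95 and 6.08 in naive microglia and 11.24, 11.24, 11.37, 11.80 and 11.76 in monocytes, a difference of -5.32 ± 0.21. Ccnb2, cyclin B2, read 5.80, 5.63, 6.61, 5.64 and 5.65 in naive microglia and 11.19, 10.94, 10.94, 11.28 and 11.28 in monocytes, a difference of -5.31 ± 0.23. Monocyte arrays spread over less than 1 log2 unit in each, and naive replicate 3 was the highest naive array. Similar differences were found for Birc5 (survivin, -5.15 ± 0.19) and Kif11 (a spindle motor, -5.03 ± 0.15). The list mean was 9.51 to 9.65 in monocyte and 5.2 to 5.81 in naive arrays. RPM and intestinal macrophages had means of 9.26 and 10.50 for Mki67. Of 34 DNA replication genes 32 were lower and none higher. Ccna2, cyclin A2 (-4.85 ± 0.24), the origin licensing factor Cdc6 (-4.33 ± 0.18), Uhrf1 (-4.22 ± 0.18), which maintains DNA methylation, and the helicase subunit Mcm5 (-3.84 ± 0.22) led, and Pcna, the sliding clamp (-1.50 ± 0.14), stood high in both groups (10.42 against 11.91). Orc1 (-0.52 ± 0.11) and Mcm7 (-0.76 ± 0.12) did not pass. Of 27 repair genes 14 were lower, among them Rad54l (-3.66 ± 0.18), Exo1 (-3.12 ± 0.15) and Brca1 (-2.92 ± 0.18) of recombination repair, while Atm (-0.31 ± 0.14) was not called and Xrcc5, of the Ku complex, was higher (2.49 ± 0.18). The inhibitors Cdkn2c (-3.79 ± 0.18) and Cdkn2d (-3.71 ± 0.19) were lower along with the cycle genes, and Cdkn1a (-0.82 ± 0.20) was not called. Whether the dividing cells in the marrow sample were monocytes or their precursors was not tested.

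Promoters of cell cycle genes carried short sequences that most promoters lack. Mitosis genes are known to use the CHR element, TTTGAA, with CCAAT boxes upstream, and TTTGAA was in 20 of 25 (80%) of their promoters, 3 of 28 (10.7%) of those of replication genes and 2639 of 16746 (15.8%) of all. CCAAT was in 19 of 25 (76%) of mitosis promoters, and both were in 17 of 25 (68%) against 1074 of 16746 (6.41%) of all, 149 of 1743 (8.55%) of those of genes called lower and 38 of 1011 (3.76%) of those of genes called higher. The E2F site, searched as TTTCCCGC, TTTCGCGC, TTTGCCGC or TTTGGCGC, was in 11 of 28 (39.3%) of replication promoters, 1 of 25 (4%) of mitosis promoters and 494 of 16746 (2.95%) of all. The 8 motifs searched also included CACGTG, the E-box of lysosomal and clock genes, in 7 of 35 (20%) of lysosomal promoters and 1374 of 16746 (8.2%) of all, and the AP-1 site, TGACTCA or TGAGTCA, in 43 of 1011 (4.25%) of promoters of genes called higher and 792 of 16746 (4.73%) of all. Shown are the mitosis promoters with both elements and the largest differences, Ccnb2 at chr9:70421505-70421804 on the minus strand and Mki67 at chr7:135716330-135716629 on the minus strand, with TTTGAA and CCAAT of either strand in capitals, and the replication promoters Cdc6 at chr11:98907901-98908200 on the plus strand and Mcm5 at chr8:75109259-75109558 on the plus strand, with the E2F letters in capitals, all on GRCm38.p6 and from RefSeq.
Ccnb2: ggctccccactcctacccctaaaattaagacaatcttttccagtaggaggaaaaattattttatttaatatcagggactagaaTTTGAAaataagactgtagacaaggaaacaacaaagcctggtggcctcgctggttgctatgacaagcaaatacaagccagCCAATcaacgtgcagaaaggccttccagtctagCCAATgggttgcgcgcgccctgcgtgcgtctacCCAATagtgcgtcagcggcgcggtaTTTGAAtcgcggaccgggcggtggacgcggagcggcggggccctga
Mki67: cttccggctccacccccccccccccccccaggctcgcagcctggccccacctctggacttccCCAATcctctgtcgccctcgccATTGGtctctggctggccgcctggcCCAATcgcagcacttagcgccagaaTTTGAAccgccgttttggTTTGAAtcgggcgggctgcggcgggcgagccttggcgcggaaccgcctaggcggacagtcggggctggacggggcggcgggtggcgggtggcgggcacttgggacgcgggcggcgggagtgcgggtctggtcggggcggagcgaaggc
Cdc6: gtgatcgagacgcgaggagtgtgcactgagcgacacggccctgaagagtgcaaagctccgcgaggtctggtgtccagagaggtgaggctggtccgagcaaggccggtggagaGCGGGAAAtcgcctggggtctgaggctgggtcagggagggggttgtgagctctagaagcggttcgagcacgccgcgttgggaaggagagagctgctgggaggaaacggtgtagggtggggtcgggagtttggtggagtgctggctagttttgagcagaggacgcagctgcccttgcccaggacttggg
Mcm5: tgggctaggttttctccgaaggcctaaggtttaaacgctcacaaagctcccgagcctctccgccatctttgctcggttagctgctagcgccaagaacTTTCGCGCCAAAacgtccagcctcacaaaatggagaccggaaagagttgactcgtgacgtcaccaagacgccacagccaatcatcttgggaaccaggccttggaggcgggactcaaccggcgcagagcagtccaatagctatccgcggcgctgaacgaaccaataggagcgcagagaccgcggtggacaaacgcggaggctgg
The window of Ccnb2 held 5 matches, that of Mki67 5, that of Cdc6 1 and that of Mcm5 2. The 2 matches of Mcm5 overlap, 1 on each strand. GAGGAAG and AGGAAGT can also overlap each other.

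Of 38 chromatin genes 10 were lower, among them the histone H2ax (-4.40 ± 0.28), the helicase Hells (-4.09 ± 0.21), the methyltransferase Dnmt1 (-2.34 ± 0.14) and Ezh2 (-1.82 ± 0.13). The de novo methyltransferase Dnmt3a (1.32 ± 0.13), the demethylase Kdm5b (1.48 ± 0.14) and Hdac11 (1.20 ± 0.13) were higher. Clock genes were higher in 7 of 18 cases, with Bhlhe41 at 4.06 ± 0.17, Hlf at 1.88 ± 0.17 and Nr1d1 at 1.61 ± 0.20, and lower in 2, Cry1 (-1.78 ± 0.24) and Nfil3 (-2.50 ± 0.17). The core pair Clock (0.11 ± 0.16) and Arntl (0.02 ± 0.12) was not called. Time of day at collection was not among the labels.

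Energy metabolism and protein turnover were lower in microglia by moderate amounts. Of 49 oxidative phosphorylation subunits 31 were lower and none higher, with a median of -1.21. Atp5h, an ATP synthase subunit, read 9.43, 9.49, 9.57, 10.01 and 9.76 in naive microglia and 11.85, 11.80, 11.93, 12.14 and 12.22 in monocytes, a difference of -2.40 ± 0.19. The complex I subunit Ndufa4 (-2.10 ± 0.18) and the cytochrome oxidase subunits Cox5a (-2.07 ± 0.17) and Cox5b (-2.0 ± 0.22) followed. Of 30 proteasome subunits 17 were lower (median -1.05, Psma7 -2.30 ± 0.15), of 23 genes of the tricarboxylic acid cycle 8 (Me2 -2.97 ± 0.17, Idh1 -2.84 ± 0.19), of 36 genes of the mitochondrial ribosome and import 15 (Timm8a1 -2.51 ± 0.23) and of 32 ribosomal proteins 13 (Rplp0 -3.11 ± 0.19). These counts lean on the scaling. With the same distribution forced on all arrays they were 22 for oxidative phosphorylation, 6 for the proteasome, 5 for the cycle, 7 for mitochondrial ribosome and import and 9 for ribosomal proteins. Of 28 glycolytic and pentose phosphate genes 9 were lower and 3 higher. Pfkp, platelet-type phosphofructokinase, read 5.01, 5.27, 4.87, 5.56 and 4.99 in naive microglia and 9.81, 9.71, 9.83, 9.81 and 9.77 in monocytes, a difference of -4.65 ± 0.16. Its difference was -4.39 after quantile normalization. Pgk1, phosphoglycerate kinase, was lower (-2.59 ± 0.15) and Ldhb, lactate dehydrogenase B, higher (2.13 ± 0.22). Nucleotide synthesis genes were lower in 15 of 24 cases, led by the ribonucleotide reductase subunits Rrm2 (-3.89 ± 0.15) and Rrm1 (-3.35 ± 0.25). Of 30 folding and stress genes of the endoplasmic reticulum 28 were not called. Of 16 subunits of the lysosomal proton pump 4 were lower and 1 higher, the subunit Atp6v0a1 (1.83 ± 0.11), with 2 lower after quantile normalization.

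Of 28 measured pairs of related genes, 8 were called in opposite directions. The pairs were picked with earlier results of these data known, so that this count describes the pairs and says nothing of related genes at large. The chemokine receptors Cx3cr1 (2.92 ± 0.12) and Ccr2 (-5.25 ± 0.23) are one such pair. The others were the integrin chains Itgb5 and Itgb7, and Itgav (1.33 ± 0.14) and Itga4 (-5.30 ± 0.32), the cathepsins Ctsl (3.20 ± 0.12) and Ctsg (-5.91 ± 0.14), the receptors Trem2 (2.94 ± 0.16) and Trem3 (-4.72 ± 0.36), Tlr3 (2.62 ± 0.15) and Tlr8 (-4.97 ± 0.35), the D cyclins Ccnd1 (2.87 ± 0.17) and Ccnd3 (-2.76 ± 0.12) and the adhesion receptors Adgrg1 (2.71 ± 0.15) and Adgrg3 (-3.12 ± 0.19). Ccnd1, cyclin D1, read 9.33, 9.72, 10.42, 9.86 and 9.67 in naive microglia and 6.63, 6.75, 6.60, 7.42 and 6.81 in monocytes, a difference of 2.87 ± 0.17. Ccnd3 read 7.30, 6.88, 7.38, 7.00 and 7.04 in naive microglia and 9.86, 9.86, 9.81, 9.86 and 9.93 in monocytes, a difference of -2.76 ± 0.12.

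**Figure D4:**
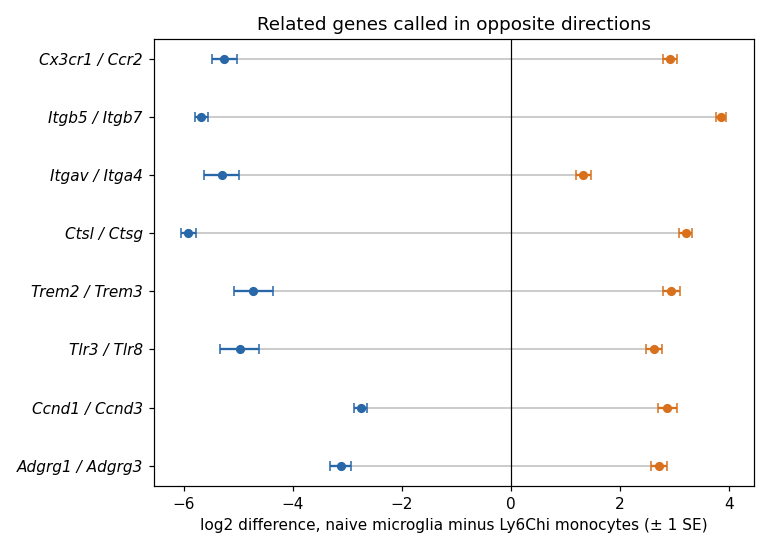
Log2 difference, naive microglia minus monocytes, for the 8 pairs of related genes called in opposite directions. Points are estimates from the fit over all arrays and bars are ± 1 SE; orange points lie above 0 and blue points below it.

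The array also carries probes at microRNA loci, which read the transcript of the hairpin locus and not the mature microRNA. Of 367 such transcripts 21 were higher and 4 lower in microglia, of which 1 is the host transcript Mir99ahg (1.54 ± 0.18) and 24 are hairpin loci. Mature sequences, 1 arm each, are given for 5 of the loci discussed here with the seed, bases 2 to 8, in capitals, from RefSeq on GRCm38.p6, because the seed decides which transcripts a microRNA can pair with. None of these 5 seeds is shared.
mmu-miR-342-3p: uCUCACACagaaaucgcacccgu
mmu-miR-181b-5p: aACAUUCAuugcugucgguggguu
mmu-miR-5123: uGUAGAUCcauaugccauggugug
mmu-miR-26a-5p: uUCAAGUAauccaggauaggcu
mmu-miR-1190: uCAGCUGAgguuccccucuguc
Mir342, which lies inside the actin regulator Evl, read 7.85, 7.85, 7.18, 8.81 and 7.59 in naive microglia and 5.71, 6.12, 6.39, 6.20 and 5.97 in monocytes, a difference of 1.77 ± 0.24. Naive replicate 4 was the highest and replicate 3 the lowest naive array, and Evl itself was higher (1.54 ± 0.14). Mir181b-2 (1.68 ± 0.27) lies inside Nr6a1 (1.25 ± 0.15), an orphan nuclear receptor, and Mir5123 (1.76 ± 0.30) inside the galactosyltransferase gene B4galt1 (1.42 ± 0.22). Mir26a-1 read 4.00, 4.13, 4.15, 3.89 and 4.04 in naive microglia and 5.94, 5.46, 5.20, 5.67 and 5.32 in monocytes, a difference of -1.47 ± 0.15. Its host Ctdspl, a phosphatase, was lower (-1.96 ± 0.12). Mir1190 (-1.76 ± 0.22) lies inside Ccdc88c (-2.03 ± 0.12), and Mir1948 (-2.29 ± 0.23) inside Ttc39c (-2.80 ± 0.12). Over all called loci, 17 lie inside a measured gene by position, and whether locus and gene share a strand was not tested. Of 14 higher loci 4 had a host called higher, of 3 lower loci 3 had a host called lower, and no host was called the other way. Mir1938 (2.11 ± 0.45) had the largest difference of the higher loci inside a gene, and its host Ifrd1 was not called (0.63 ± 0.20).

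**Figure D5:**
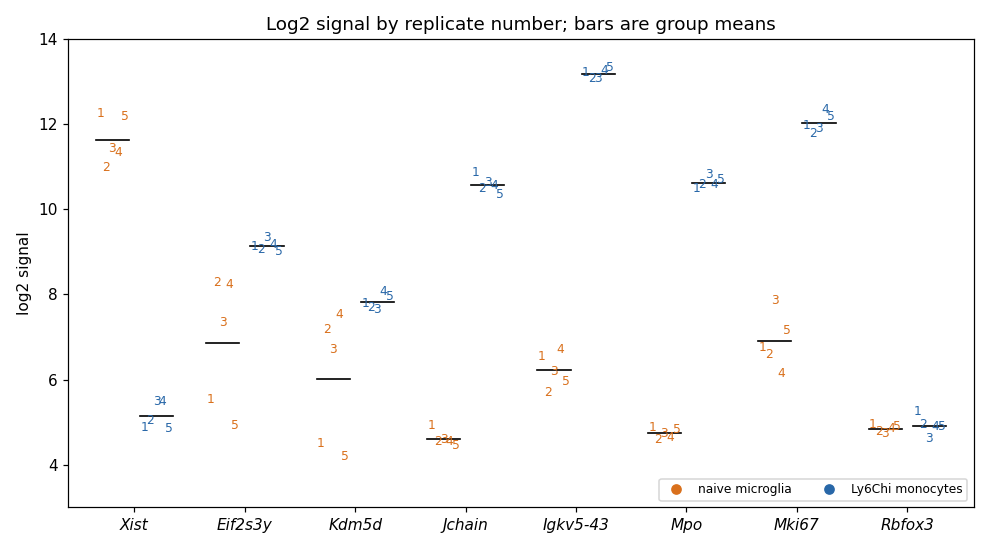
Log2 signal of 8 genes that bear on the make-up of the samples in each of the 5 naive microglia arrays (orange) and 5 Ly6Chi monocyte arrays (blue), numbered by replicate. Xist is high in all naive arrays, Eif2s3y and Kdm5d are low in naive replicates 1 and 5, Jchain, Igkv5-43, Mpo and Mki67 are high in monocyte arrays only, and Rbfox3 is at background in all.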

How the data were processed

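RNA of sorted or bead-purified cell pools was hybridised to Affymetrix Mouse Gene 2.1 ST arrays. The deposited values are log2 signals per transcript that the authors made in Partek. The version, probe summary and normalization are not given in the sources used here, and the equal batch differences in both groups are those of values adjusted for batch. Of 41345 transcripts 2145 were blank and 6955 were 0 in every array, which left 32245. Of these 22761 had 1 symbol, and a gene was read from its single-symbol transcript of highest mean. The platform annotation named no gene for 7801 and several for 1683, and some genes were not analysed here.

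Differences came from limma 3.58.1 in R 4.3.3, fitted to all 27 arrays with a mean for each group and a batch term, with Benjamini-Hochberg adjustment over all transcripts. Residual degrees of freedom were 17. If the batch effect was removed before deposit, the fit counts it as estimated here. The number of arrays limits the precision. The fit was tested on simulated data with known changes. The comparison, the gene lists and the related pairs were chosen with earlier results of these data known. Genes named were the 20 largest rises and falls, up to 4 members at each end of a list, the pairs, genes that the study names and the largest microRNA loci. A further 75 of the 367 genes were named after their values were seen. Alternatives covered the batch term, scaling, filters, thresholds, arrays left out, 3 against 3 arrays and the replicate number as a block. Reactome sets came from an R package and were used for counts only. Promoters and mature microRNAs are from RefSeq on GRCm38.p6.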

Additional observations from a re-analysis of the deposited data

Results flagged for a closer look

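In 734 groups of 5 arrays, for 367 genes named in the text, 1 array lay far from the other 4 in 52 cases, by the gap to the nearest array relative to the range. Chance alone would flag about 1 in 20 groups, or 37. Naive replicate 3 was the array in 25 cases. The log2 signal is given for each, against the nearest other array of its group. In naive replicate 3 the high genes were Aurkb (7.35 against 6.08), Ccnb2 (6.61 against 5.8), Fcgr1 (12.2 against 11.9), Fcrl1 (11 against 10.4), Galns (9.81 against 8.8), Gas6 (11.1 against 10.4), Irf7 (8.59 against 7.7), Irf8 (10.7 against 9.46), Itgam (13 against 12.6), Itgb2 (11 against 9.66), Ldhb (10.2 against 9.1), Lpl (6.48 against 5.44), Mef2c (8.85 against 8.39), Scarb1 (10.1 against 9.41), Selplg (13.3 against 12.6), Sema4a (6.41 against 6.1), Slc11a1 (12.3 against 11.8), Slc1a3 (9.25 against 8.98), Slco2b1 (11.5 against 9.94) and Sox4 (10.4 against 10). They range from surface receptors and lysosomal genes to dividing-cell genes. The low genes there were Clec4b1 (3.69 against 4.39), Hspa1a (8.34 against 9.09), Hspa1b (9.3 against 11.1), Mmp8 (3.9 against 4.29) and Tubb3 (3.94 against 4.68).

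Naive replicate 1 was high for Fas (5.33 against 4.96). Naive replicate 1 was low for Ctsd (12.6 against 12.7) and Mmp2 (8.6 against 8.91). Naive replicate 2 was high for Ctsg (5.02 against 4.78). Naive replicate 2 was low for Lgmn (13 against 13.2), Me2 (7.02 against 7.33) and Slfn1 (4.74 against 5.14). Naive replicate 4 was high for C3ar1 (11.4 against 11.1), Cdc6 (5.3 against 4.9), Mef2a (12.6 against 12.5) and Mgst1 (5.89 against 5.43). Naive replicate 4 was low for Prtn3 (4.54 against 5.24). Naive replicate 5 was high for Mir99ahg (6.63 against 6.15). Among monocytes, replicate 1 was low for Cfp (10.2 against 10.7), Cybb (10.2 against 10.4), Il1a (4.44 against 4.98) and Myc (7.91 against 8.41). Among monocytes, replicate 2 was low for Sparc (4.56 against 5.1). Among monocytes, replicate 3 was high for Elane (12.1 against 11.8). Among monocytes, replicate 3 was low for Clec7a (11.2 against 11.5), Flt3 (7.19 against 7.57), Gas6 (4.28 against 5.17), Icam1 (7.83 against 8.28), Tnfrsf11a (5.64 against 6.17) and Tnfsf13b (7.01 against 7.47). Among monocytes, replicate 4 was high for Ccna2 (10.7 against 10.5) and Ccnd1 (7.42 against 6.81).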

How the results depend on the processing

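The count of called transcripts, 4718, was 4717 without the batch term, 4401 after quantile normalization, 4824 after median centring, 4676 and 4557 within batches 1 and 2, and 4653 to 4760 with one array left out. Adjusted p alone, with no minimum change, gave 10986, and a limit of 4-fold gave 1644. With 3 of 5 arrays in each group, as if only biological arrays were kept, it was 4636 to 4916 over 100 choices, and no gene was called the other way. The calls of 2999 of 3529 genes remained after quantile normalization, but the share of higher calls went from 37.4% to 48.1%, and median centring moved the median of all genes from -0.00314 to -0.0588. Autophagy genes went from 6 lower and 1 higher to 1 and 4 after quantile normalization. Near the 2-fold limit, Itgam (1.22) and Klf2 (1.09) were called after quantile normalization, Isg15 after median centring (-1.02) or without monocyte replicate 1 (-1.02) or 4 (-1.06), Fos without naive replicate 2 (-1.12) or 4 (-1.09) and Cdkn1a without naive replicate 3 (-1.0). Apaf1 (-0.96) and Irf4 (-0.96) were not called after quantile normalization, and Clu and Hdc not within batch 2. Ly6g was not called within either batch or without monocyte replicate 1 (-0.88), and Eif2s3y and Kdm5d not within batch 2 or without naive replicate 1 (-1.73 and -1.35). The cause was not tested. Deviations of same-numbered arrays correlated at -0.141 to 0.225. The value was negative for number 3, whose arrays were in different batches, and positive for the others, whose arrays shared a batch. These values therefore cannot decide whether the numbers pair the samples. A replicate block without the batch term gave 4717 transcripts.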

Other observations

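Of 26 iron and heme genes 3 were higher in naive microglia, Slc40a1, the mitochondrial iron importer Slc25a37 (1.77 ± 0.12) and the phagosomal metal transporter Slc11a1 (1.73 ± 0.11), and 4 lower, among them the siderophore binder Lcn2 (-3.16 ± 0.49) and the reductase Steap3 (-2.0 ± 0.14). Of 39 ribosome biogenesis genes 2 were higher, the growth factor-responsive Myc (1.64 ± 0.26) and Nop56 (1.25 ± 0.28), and 4 lower, led by Nhp2 (-2.06 ± 0.12). Nop56 was not called as the mean over its transcripts (0.78), and the lower genes numbered 2 after quantile normalization and 7 after median centring. Of 8 mast cell and basophil markers 3 were lower, Mcpt8, the histidine decarboxylase Hdc (-1.39 ± 0.42) and Prss34 (-1.20 ± 0.14). Hdc was called in 1 of the 100 choices of 3 against 3 arrays and not within batch 2.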
